A study of Mus musculus with 8 samples.

Results

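The 40 genes described here are G1 regulators, S phase genes and mitosis genes, listed by symbol and read from a table of 25239 genes measured by RNA sequencing in mouse corpus callosum, the bundle of myelinated axons between the cerebral hemispheres. They fell into 4 genes of G1, 12 of S phase and 24 of G2 and mitosis. All 40 were in the table, and all 40 passed the filter, which asked for 0.1 CPM (counts per 1e6 reads, normalized) or more on average over the libraries. The samples were 8 libraries from male C57BL/6J mice, wild type (WT) or TRPA1-knockout (TRPA1-KO, backcrossed to C57BL/6J), aged 8 to 12 weeks. Bilateral common carotid artery stenosis (BCAS) narrows both carotid arteries with microcoils and lowers cerebral blood flow over weeks, and sham surgery is the same without coils. Under each label there were 4 libraries, a sham of postoperative day 14 and BCAS of days 7, 10, and 14. A library stands for 1 mouse, so the days served as replicates, and the spread within a label holds both mice and days. The libraries held 7896071 to 12952093 reads on genes.

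The labels were checked with *Trpa1* itself. Under the label WT it had 1 read in the sham library and 0 reads on each of days 7, 10, and 14 after BCAS. The libraries labelled TRPA1-KO held 10 reads in the sham and 11, 3, and 7 reads on days 7, 10, and 14. These counts go against the labels, which are kept here as names only ("labelled WT", "labelled TRPA1-KO"). The values are per gene, so reads from a part that the knockout leaves in place cannot be told apart from others. Why the counts go against the labels was not tested. The tissue was checked with its own markers. The summed level of 10 mature oligodendrocyte genes was 12630 to 16890 CPM, and *Mbp* (myelin basic protein) was the most abundant of them over the 8 libraries. Neurons of neighbouring regions were present as well, since 8 striatal neuron genes summed to 660 to 1730 CPM, and their share differed between libraries as given below.

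A cell enters the cycle when D and E cyclins activate their kinases in G1, which p21 (*Cdkn1a*) can block. In S phase the MCM helicase unwinds DNA that enzymes of nucleotide synthesis supply with bases, and in G2 and mitosis CDK1 with cyclins A and B sets off chromosome condensation, spindle assembly and division. In adult white matter, oligodendrocyte precursors are the main cycling cells, and microglia and astrocytes can divide after injury. These are bulk samples, so fewer cells of a type and less RNA per cell cannot be told apart.

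The BCAS library labelled WT from day 7 stood apart from the other 7 libraries in the genes of S phase and mitosis. The 24 genes of G2 and mitosis summed to 202 CPM there (2271 reads, 95% Poisson interval 193.7 to 210.4 CPM). Their sum was 94.5 and 98.9 CPM in the sham libraries labelled WT and TRPA1-KO. It was 94.6 and 76.1 CPM on days 10 and 14 under the label WT, and 74.8, 89.8, and 84.2 CPM on days 7, 10, and 14 under the label TRPA1-KO. The day 7 library labelled WT was therefore 2.09 times the sham mean (95% interval 1.97 to 2.22), and the other 5 BCAS libraries were 0.774 to 0.979 times the sham mean. These intervals cover the counting error of a library and not the spread between mice.

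The same library was highest in the other roles, with smaller folds. The 12 S phase genes summed to 195 CPM in the day 7 library labelled WT, or 1.53 times the sham mean (95% interval 1.45 to 1.62). The sham libraries held 119 and 135 CPM, and the other 5 BCAS libraries 107.9 to 124.9 CPM. The 4 genes of G1 summed to 114 CPM in the day 7 library labelled WT (1.49 times the sham mean, 1.38 to 1.60), against 76.7 to 86.8 CPM in the other 7 libraries. On day 14 the G1 sum under the label WT was 1.13 times the sham mean, while the sums of S phase (0.849 times) and of mitosis (0.788 times) in that library lay below it.

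**Figure D1:**
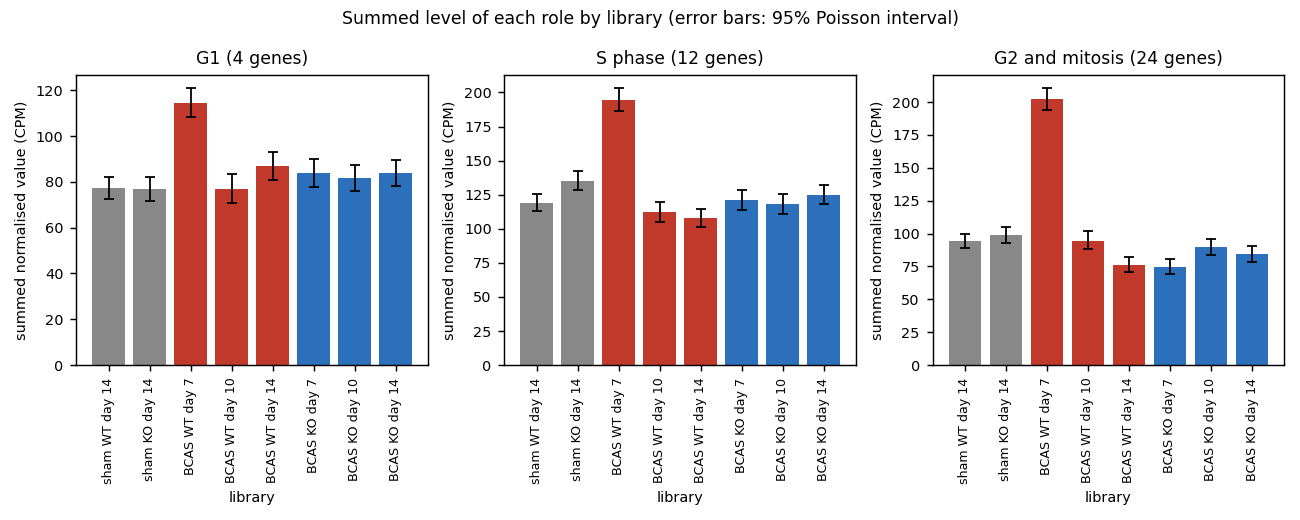
Summed CPM of the genes of G1, S phase, and G2 and mitosis in each of the 8 libraries, with bars for the 95% Poisson interval of the summed reads of 1 library. The day 7 BCAS library labelled WT lies above the other 7 in all 3 roles, with 202 CPM for G2 and mitosis against 74.8 to 98.9 CPM.

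Gene by gene, 39 of the 40 lay above the sham mean in the day 7 library labelled WT, with a median log2 difference of 0.81 over the 40 and of 0.00 over all 18123 genes tested (log2(CPM + 1) scale). *Ccne1* (cyclin E1) was the exception, at -0.09. A difference of at least 0.5 above the sham mean was found for 30 of the 40, and for 9.90% of all genes tested. This library had the highest value of the 8 for 37 of the 40 genes, including all 24 of G2 and mitosis, 11 of 12 of S phase, and 2 of 4 of G1. Among all genes tested, that share was 21.9%. The genes with a higher value elsewhere were *Ccne1*, *Ccne2*, and *Mcm4*.

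The median difference from sham grew along the cycle, from 0.36 in G1 through 0.71 in S phase to 0.88 in G2 and mitosis. In the other BCAS libraries the medians over the 40 genes were -0.11 and -0.21 on days 10 and 14 under the label WT, and -0.19, -0.02, and -0.16 on days 7, 10, and 14 under the label TRPA1-KO. At least 0.5 below the sham mean were 1 and 6 genes on days 10 and 14 under the label WT (background 3.24% and 3.49%), and 6, 3, and 3 genes on days 7, 10, and 14 under the label TRPA1-KO (background 3.98%, 2.63%, and 2.09%). At least 0.5 above it were 2 genes (*Bub1b* and *Ube2c*) on day 10 and 1 (*Cdkn1a*) on day 14 under the label WT (background 4.88% and 1.42%), and 0, 0, and 1 (*Bub1b*) on days 7, 10, and 14 under the label TRPA1-KO (background 2.27%, 1.95%, and 2.67%). The mitosis genes carried most of this on day 14 under the label WT, where 21 of 24 lay below the sham mean (median -0.34), and on day 7 under the label TRPA1-KO, where 20 of 24 did (median -0.26).

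**Figure D2:**
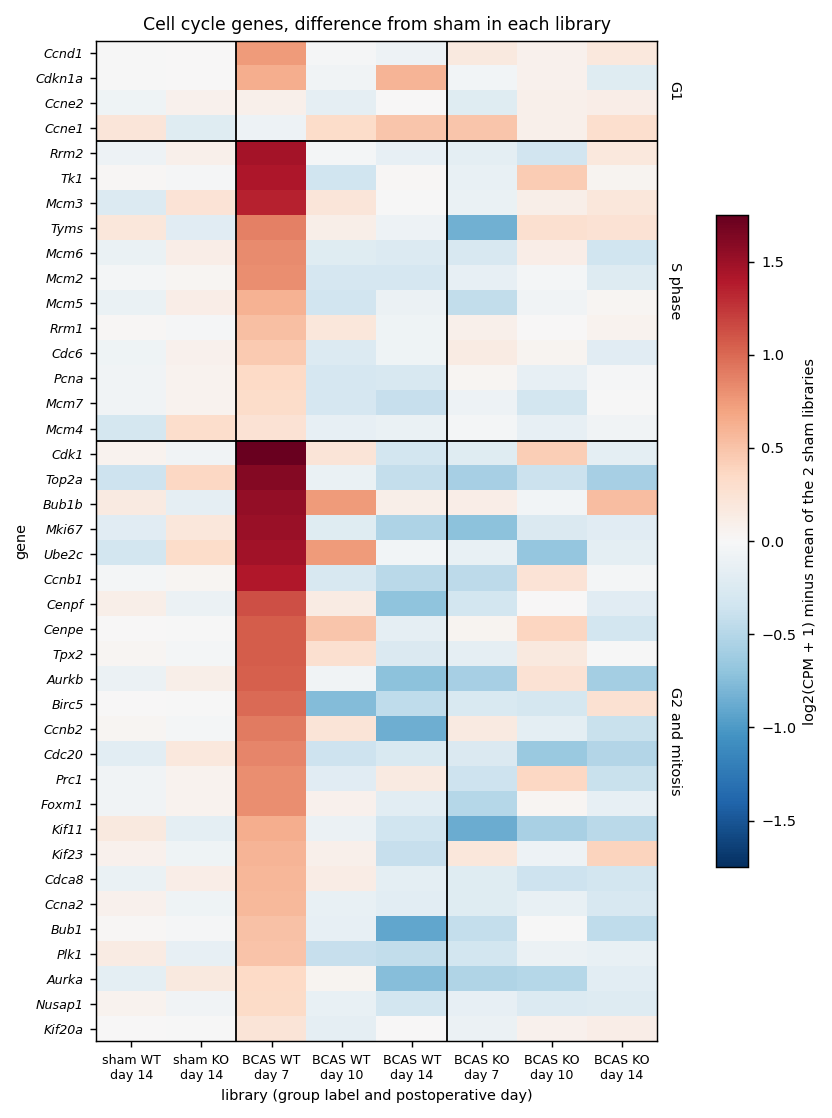
Log2(CPM + 1) of each of the 40 genes (rows, by role) in each of the 8 libraries (columns), as the difference from the mean of the 2 sham libraries. The day 7 BCAS library labelled WT is the column in which 39 of 40 genes lie above 0, with a median of 0.81, and the other BCAS columns have medians of -0.21 to -0.02.

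Both shams were of day 14, so day 7 has no sham of its own day. Since each label and day had 1 library, the day 7 difference has no replicate. Its counting error was therefore compared gene by gene. The 95% exact binomial interval of the day 7 library labelled WT lay wholly above the intervals of all 7 other libraries for 16 of the 40 genes, and for 4.07% of all genes tested. These were *Ccnd1* of G1, *Pcna*, *Mcm2*, *Mcm3*, *Mcm6*, *Rrm2*, and *Tk1* of S phase, and *Mki67*, *Top2a*, *Cdk1*, *Ccna2*, *Ccnb1*, *Cenpf*, *Bub1b*, *Tpx2*, and *Foxm1* of G2 and mitosis. For 5 genes (*Ccne1*, *Ccne2*, *Cdc6*, *Kif20a*, and *Nusap1*) it lay above none of them. The remaining 19 lay in between. The days were compared in the same way between the labels. The median difference, labelled WT minus labelled TRPA1-KO, was 1.03 on day 7 (39 of 40 higher under the label WT), 0.02 on day 10 (22 of 40 higher), and -0.13 on day 14 (12 of 40 higher).

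The sequences before the start sites are described as background to the list. The 40 genes were chosen as cell cycle genes, and whether the strings go with the day 7 values was not tested. Mitosis genes are known for CCAAT boxes, bound by NF-Y, and for the cell cycle genes homology region (CHR), bound by the DREAM and B-MYB–MuvB complexes, and S phase genes for E2F sites. RefSeq (GRCm38.p6) gave windows from 250 bases before to 50 bases after the start for 32 of the 40 genes (35 windows), and the strings were searched on both strands in the 250 bases before the start. The string CCAAT stood in 18 of 20 windows of G2 and mitosis genes (90.0%), in 9 of 12 windows of S phase genes (75.0%), in 0 of 3 windows of G1 genes, and in 33.8% of all 32851 windows. The CHR string TTTGAA stood in 8 of 20, 1 of 12, and 0 of 3 windows, and in 16.0% of all windows. TTTCCCGC or TTTGGCGC, strings of E2F sites, stood in 0 of 20, 4 of 12, and 0 of 3 windows, and in 1.30% of all windows. No string of the 3 kinds contains a string of another kind. A match describes the letters and is not a measured binding site. The genes without a window were *Tpx2*, *Mcm4*, *Ccnd1*, *Kif20a*, *Ccna2*, *Aurkb*, *Foxm1*, and *Ccne2*.

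The sequences below run up to the base before the start of the gene, except for *Top2a*, where the last 10 bases, next to the start, are left out because they lie within the annotated span of the gene. They show mitosis genes with CCAAT boxes (*Top2a*, *Ccnb2*, *Kif11*) and a mitosis gene with none of the strings in the stretch shown (*Birc5*). A pair of MCM genes without and with E2F strings (*Mcm3*, *Mcm6*) follows. Capitals mark the matches, and each is written 5′ to 3′ along its gene. The stretches lie at chr11:99024200-99024339 (*Top2a*, minus strand), chr9:70421555-70421704 (*Ccnb2*, minus), chr19:37376232-37376381 (*Kif11*, plus), chr11:117849087-117849236 (*Birc5*, plus), chr1:20820313-20820462 (*Mcm3*, minus), and chr1:128359706-128359855 (*Mcm6*, minus), and hold no annotated exon base.
*Top2a*: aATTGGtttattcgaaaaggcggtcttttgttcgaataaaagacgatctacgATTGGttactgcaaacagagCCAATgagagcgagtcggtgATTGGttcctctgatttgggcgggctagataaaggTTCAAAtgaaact
*Ccnb2*: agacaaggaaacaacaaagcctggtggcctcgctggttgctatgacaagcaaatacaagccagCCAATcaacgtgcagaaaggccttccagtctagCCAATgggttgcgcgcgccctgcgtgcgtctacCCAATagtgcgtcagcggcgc
*Kif11*: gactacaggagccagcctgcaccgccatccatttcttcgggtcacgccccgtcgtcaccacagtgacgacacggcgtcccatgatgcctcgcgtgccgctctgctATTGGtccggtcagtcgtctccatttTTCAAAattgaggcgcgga
*Birc5*: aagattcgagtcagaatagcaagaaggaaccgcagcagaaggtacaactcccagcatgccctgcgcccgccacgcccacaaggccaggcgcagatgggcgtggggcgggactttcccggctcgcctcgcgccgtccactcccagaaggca
*Mcm3*: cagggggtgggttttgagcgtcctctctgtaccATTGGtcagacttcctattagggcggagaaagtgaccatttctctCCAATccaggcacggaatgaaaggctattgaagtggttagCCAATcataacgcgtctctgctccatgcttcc
*Mcm6*: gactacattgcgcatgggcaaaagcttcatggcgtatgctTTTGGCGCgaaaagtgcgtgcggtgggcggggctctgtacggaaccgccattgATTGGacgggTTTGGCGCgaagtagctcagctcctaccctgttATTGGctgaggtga
The *Top2a* stretch holds 4 CCAAT boxes and 1 CHR string, that of *Ccnb2* 3 CCAAT boxes, and that of *Kif11* 1 of each. Outside these stretches, *Ccnb2* has a CHR string 167 to 162 bases before its start, and *Top2a* has further CCAAT and CHR strings. The *Mcm3* stretch holds 3 CCAAT boxes, and that of *Mcm6* 2 CCAAT boxes and 2 E2F strings. With or without the strings, these genes were higher in the day 7 library labelled WT than in the other 7. *Birc5* (survivin, of the chromosomal passenger complex) had 4.09 CPM there and 0.504 to 2.08 CPM elsewhere, and *Mcm6* 15.6 CPM and 6.35 to 9.11 CPM.

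Among the 4 genes of G1, *Ccnd1* (cyclin D1, which starts the cycle with CDK4 or CDK6) had the clearest step. It had 40.3 and 41.0 CPM in the sham libraries labelled WT and TRPA1-KO, 69.1, 39.9, and 38.1 CPM on days 7, 10, and 14 after BCAS under the label WT, and 45.7, 42.9, and 46.3 CPM under the label TRPA1-KO. It was thus high in the day 7 library labelled WT, at 1.70 times the sham mean, and the 3 libraries labelled TRPA1-KO all lay slightly above both shams. *Cdkn1a*, which encodes the CDK inhibitor p21, had 15.1 and 15.3 CPM in the shams, 24.1, 14.6, and 23.5 CPM on days 7, 10, and 14 under the label WT, and 14.7, 16.0, and 13.0 CPM under the label TRPA1-KO. It was the only one of the 40 genes with a day 14 value under the label WT at least 0.5 above sham. *Ccne1* and *Ccne2*, the E cyclins that activate CDK2, ranged from 7.96 to 13.5 CPM and from 9.91 to 12.7 CPM over the 8 libraries, with the day 7 library labelled WT at the end of neither range.

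Of the S phase genes, *Tk1* and *Rrm2*, both of nucleotide synthesis, had the largest folds. *Rrm2*, the regulated subunit of ribonucleotide reductase, had 3.36 and 3.93 CPM in the shams (43 and 41 reads), 11.7, 3.53, and 3.18 CPM on days 7, 10, and 14 under the label WT, and 3.12, 2.67, and 4.27 CPM under the label TRPA1-KO. Its day 7 value under the label WT rests on 132 reads and was 3.22 times the sham mean. *Tk1* (thymidine kinase) was 4.22 times the sham mean in that library, at 4.54 CPM (51 reads) against 0.630 to 1.82 CPM in the other 7. *Tyms* (thymidylate synthase) had 3.73 CPM against 0.445 to 2.13 CPM, while *Rrm1*, the large subunit of ribonucleotide reductase, moved less, from 17.3 to 21.2 CPM elsewhere to 26.9 CPM.

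The folds of the 6 subunits of the MCM helicase ranged from 1.18 to 2.84 on day 7 under the label WT. *Mcm3* had 3.60 and 5.37 CPM in the shams, 12.7, 5.29, and 4.39 CPM on days 7, 10, and 14 under the label WT, and 4.01, 4.80, and 5.20 CPM under the label TRPA1-KO. It had the largest fold of the 6. *Mcm2* and *Mcm6* followed at 1.87 and 1.86 times, then *Mcm5* at 1.60 times. *Mcm7* (1.26 times) and *Mcm4* (1.18 times) moved least, and *Mcm4* was higher in the sham library labelled TRPA1-KO (15.7 CPM) than on day 7 under the label WT (15.2 CPM). *Pcna*, the sliding clamp of the polymerase, had 55.9 CPM against 35.4 to 45.6 CPM in the other 7, and *Cdc6*, which loads the helicase, had 2.04 CPM against 0.882 to 1.45 CPM on 7 to 23 reads per library.

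The mitosis genes best known as proliferation markers were high in 1 library and low in the other BCAS libraries. *Mki67*, which encodes the Ki-67 antigen that coats mitotic chromosomes, had 6.81 and 9.21 CPM in the shams (87 and 96 reads), 24.4, 6.68, and 5.16 CPM on days 7, 10, and 14 under the label WT (274, 53, and 47 reads), and 4.45, 6.51, and 6.76 CPM under the label TRPA1-KO (40, 61, and 65 reads). *Top2a*, the topoisomerase that untangles sister chromatids, had 5.48 and 9.78 CPM in the shams, 24.5, 6.68, and 5.27 CPM under the label WT, and 4.56, 5.45, and 4.58 CPM under the label TRPA1-KO. Both were more than 3 times the sham mean on day 7 under the label WT (3.04 and 3.21 times) and below it in the other 5 BCAS libraries.

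The kinase of mitosis and its cyclins were high in the same library. *Cdk1* had 1.02 and 0.863 CPM in the shams (13 and 9 reads), 5.43, 1.26, and 0.549 CPM on days 7, 10, and 14 under the label WT (61, 10, and 5 reads), and 0.668, 1.60, and 0.728 CPM under the label TRPA1-KO (6, 15, and 7 reads). At 5.77 times the sham mean it had the largest day 7 fold of the 40. *Ccnb1* (cyclin B1) was 3.91 times the sham mean, at 5.07 CPM against 0.658 to 1.71 CPM elsewhere, *Ccnb2* 2.37 times, and *Ccna2* (cyclin A2) 1.52 times, at 18.9 CPM against 9.99 to 13.1 CPM. *Foxm1*, the transcription factor that drives mitosis genes, had 7.83 CPM against 2.56 to 4.29 CPM.

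Spindle and checkpoint genes followed. *Bub1b*, which encodes the checkpoint protein BUBR1, had 3.36 and 2.49 CPM in the shams, 10.3, 5.54, and 3.18 CPM on days 7, 10, and 14 under the label WT, and 3.23, 2.78, and 4.68 CPM under the label TRPA1-KO, and was 3.52 times the sham mean on day 7 under the label WT. Its partner in the checkpoint, the kinase *Bub1*, was low throughout (1 to 22 reads). *Kif11*, the motor that pushes the spindle poles apart, had 6.57 and 4.99 CPM in the shams, 9.43, 5.29, and 4.28 CPM under the label WT, and 2.67, 3.52, and 3.85 CPM under the label TRPA1-KO. It was low in all 3 BCAS libraries labelled TRPA1-KO, and neither the shams nor the BCAS libraries labelled WT overlapped with them. *Tpx2* and *Aurka* (spindle assembly at the poles) were 2.37 and 1.36 times the sham mean on day 7 under the label WT, and *Cenpe* and *Cenpf* (kinetochores) 2.56 and 2.60 times.

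Of the genes that end mitosis, *Ube2c*, the ubiquitin-conjugating enzyme of the anaphase-promoting complex, had 0.548 and 1.44 CPM in the shams (7 and 15 reads), 4.36, 2.27, and 0.878 CPM on days 7, 10, and 14 under the label WT (49, 18, and 8 reads), and 0.779, 0.214, and 0.728 CPM under the label TRPA1-KO (7, 2, and 7 reads). All 3 libraries labelled WT thus lay above all 3 labelled TRPA1-KO after BCAS, although the lowest labelled WT (8 reads) and the highest labelled TRPA1-KO (7 reads) differ by 1 read. *Cdc20*, which activates the same complex, was 2.21 times the sham mean on day 7 under the label WT. *Plk1* (polo-like kinase) was 1.53 times, and of the passenger complex *Birc5* was 2.64, *Aurkb* 3.31, and *Cdca8* 1.72 times the sham mean, with 1 to 31 reads per library for *Aurkb*. The genes of the midzone and of cytokinesis were 1.88 (*Prc1*), 1.70 (*Kif23*), and 1.17 times (*Kif20a*), and *Nusap1*, which binds spindle microtubules, 1.33 times.

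**Figure D3:**
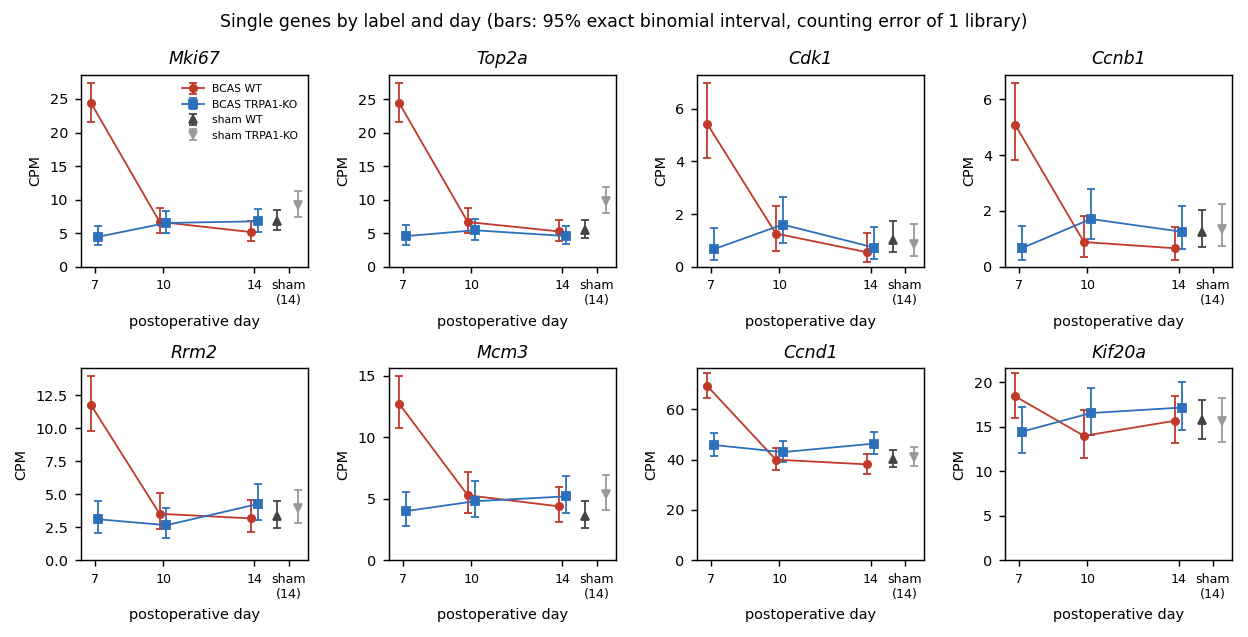
CPM of 8 of the genes by postoperative day, with 95% exact binomial intervals for the counting error of each library; every point is a different mouse and the lines join days of a label. *Mki67*, *Top2a*, *Cdk1*, *Ccnb1*, *Rrm2*, *Mcm3*, and *Ccnd1* are high on day 7 under the label WT alone, and *Kif20a* (14.0 to 18.4 CPM) is nearly level.

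Levels of different genes were compared per kilobase of exon. By mean CPM per kb over the 7 other libraries, *Pcna* (17.0), *Ccnd1* (8.93), *Cdkn1a* (4.51), *Ccne1* (4.27), and *Mcm7* (3.79) led, and *Cenpf* (0.158), *Bub1* (0.173), and *Cdk1* (0.194) were lowest. On day 7 under the label WT, the level of *Cdk1* was 1.10 CPM per kb and that of *Pcna* 23.3. The most abundant genes of S phase and of mitosis per kb, *Pcna* and *Kif20a*, thus had small folds (1.28 and 1.17 times the sham mean), while *Ccnd1* led G1 in both level and fold. Reads of some genes cannot be assigned with certainty. Of the 40, 15 share exon bases with another gene, most of all *Kif20a* with *Cdc23* (29.3% of its exon length), *Ccnd1* with *LTO1* (23.4%), and *Ube2c* with *Tnnc2* (22.8%), each on the opposite strand. The kit does not mark strand, so reads from these shared stretches cannot be told apart. *Pcna*, *Tyms*, *Ccnb1*, and *Ccnb2* have named pseudogenes. The genes lie on 17 chromosomes, for example *Mki67* at chr7:135689784-135716450, *Cdk1* at chr10:69335146-69352912, *Kif11* at chr19:37376382-37421863, and *Ube2c* at chr2:164769929-164772902 (GRCm38.p6).

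Whether the labels differed after BCAS was tested over the 6 BCAS libraries, 3 against 3. The log2 difference, labelled WT minus labelled TRPA1-KO, was above 0 for 35 of the 40 genes (median 0.30), with medians of 0.03 in G1, 0.21 in S phase, and 0.38 in G2 and mitosis. *Ube2c* (1.05, SE 0.345, limma p = 0.0128, exact permutation p = 0.10), *Kif11* (0.70, SE 0.265, limma p = 0.0248, exact p = 0.10), and *Cdkn1a* (0.45, SE 0.187, limma p = 0.0358, exact p = 0.30) had an unadjusted limma p under 0.05 and were higher under the label WT. They are 3 of 40 genes, where 2.40% of all genes tested passed in this direction and 1.80% in the other, in which none of the 40 did. No gene of the 40 had a limma adjusted p under 0.05 (smallest 0.98), and 0.0166% of all genes did. In the exact permutation test over libraries, 3 against 3 cannot go below p = 0.10. *Ube2c* and *Kif11* reached it, and the groups of *Cdkn1a* overlap. The groups did not overlap for *Ube2c*, *Kif11*, and *Cdca8*, all higher under the label WT (3 of 40; 4.48% of all genes tested).

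*Mki67*, *Top2a*, and *Cdk1* did not pass. *Mki67* averaged 12.1 ± 10.7 CPM (SD, n = 3) after BCAS under the label WT and 5.91 ± 1.27 CPM (SD, n = 3) under the label TRPA1-KO. Its log2 difference was 0.64 (SE 0.444, limma p = 0.181, exact permutation p = 0.50), that of *Top2a* 0.87 (SE 0.433, limma p = 0.0723, exact p = 0.20), and that of *Cdk1* 0.53 (SE 0.446, limma p = 0.264, exact p = 0.70). Without the day 7 library labelled WT, the median over the 40 genes was -0.03, with 19 above and 21 below 0. Then *Ube2c* (higher under the label WT) and *Ccnd1* and *Pcna* (lower) had an unadjusted limma p under 0.05, where 1.59% of all genes were higher and 1.82% lower. Without the day 14 library labelled WT, the median was 0.48 and 14 genes passed, all higher under the label WT and all of them mitosis genes except *Mcm3*, where 6.75% of all genes were higher and 3.44% lower.

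**Figure D4:**
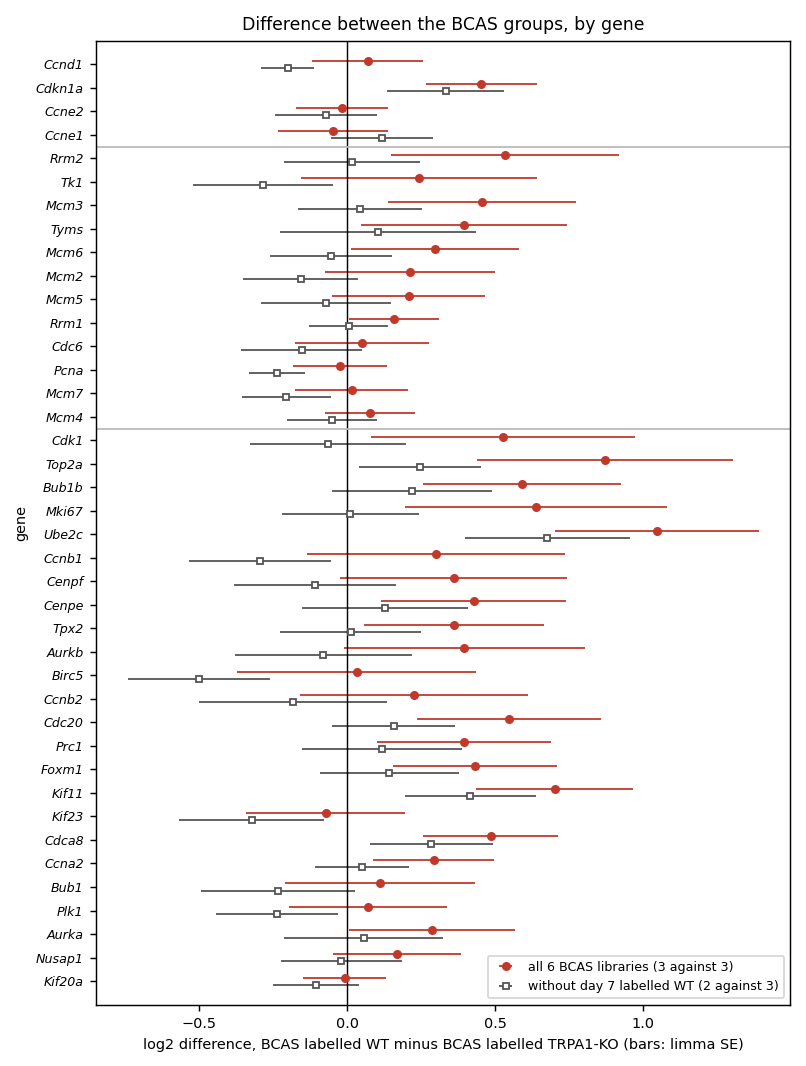
Log2 difference between the BCAS libraries labelled WT and TRPA1-KO for each of the 40 genes, with the limma standard error as bars, over all 6 BCAS libraries (filled circles) and without the day 7 library labelled WT (open squares). The median moves from 0.30 to -0.03, and *Ube2c* stays farthest to the right.

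Whether BCAS changed these genes was tested against the 2 sham libraries, which the next 3 comparisons share. Under the label WT the median log2 difference from sham was 0.16 (32 of 40 above 0). Without the day 7 library labelled WT it was -0.16 (9 of 40 above 0), and 0 genes were higher and 3 lower (*Pcna*, *Mcm7*, and *Birc5*) at an unadjusted limma p under 0.05, where 2.22% of all genes were higher and 3.07% lower. *Bub1b* (0.79, SE 0.356, limma p = 0.0472, exact p = 0.30) was the 1 gene higher at an unadjusted p under 0.05, where 2.44% of all genes were higher and 3.01% lower. The adjusted p was under 0.05 for none of the 40 and for 0% of all genes. Under the label TRPA1-KO the median was -0.12 (29 of 40 below 0). *Kif11* was lower (-0.64, SE 0.283, limma p = 0.0446), at the smallest exact p that 3 against 2 allows, 0.10. The background was 1.67% lower and 1.07% higher, and no gene of the 40 but 0.00552% of all genes had an adjusted p under 0.05.

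The BCAS libraries labelled TRPA1-KO lay wholly below both shams for 9 of the 40 genes (*Mcm2*, *Mki67*, *Top2a*, *Ccna2*, *Cdc20*, *Cdca8*, *Aurka*, *Kif11*, and *Nusap1*), against 10.2% of all genes tested, and wholly above for *Ccnd1* (1 of 40; 8.41% of all genes tested). Over all 6 BCAS libraries against sham the median was 0.00, with 20 genes above and 20 below 0. No gene had an unadjusted limma p under 0.05, where 1.35% of all genes were higher and 2.32% lower. The same holds for edgeR and DESeq2 on the recovered reads, and an adjusted p under 0.05 was found for 0% of all genes with limma. Here 6 against 2 allows an exact p of 0.0357, and the smallest among the 40 was 0.214.

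Other genes of the cycle were read from 4 lists. Of 39 other S phase genes, 3 were higher and 0 lower under the label WT than under the label TRPA1-KO after BCAS at an unadjusted limma p under 0.05 (median 0.08), beside 2.40% higher and 1.80% lower of all genes. They include *Orc1* (origin recognition; 0.62, SE 0.177, p = 0.00601) and *Chaf1b* (chromatin assembly; 0.55, SE 0.232, p = 0.0398), both with an exact permutation p of 0.10. Of 47 other mitosis genes, 3 were higher and 0 lower at the same threshold (median 0.25), namely *Hjurp*, *Kif18b*, and *Cdc25c*. Without the day 7 library labelled WT, the S phase list had 1 higher and 0 lower (median -0.04) and the mitosis list 2 higher and 1 lower (median -0.01), beside 1.59% higher and 1.82% lower of all genes. *Hjurp*, the chaperone that loads the centromere histone CENP-A, had a difference of 1.43 (SE 0.216, limma p = 6.3e-05, limma adjusted p = 0.163, exact permutation p = 0.10). It differed between the shams of day 14 too, with 87.8 CPM under the label WT and 30.2 CPM under the label TRPA1-KO. On days 7, 10, and 14 after BCAS it had 103, 88.8, and 80.8 CPM under the label WT. Under the label TRPA1-KO it had 27.2, 26.1, and 50.9 CPM on these days. On day 7 under the label WT, 43 of these 47 genes and 29 of the 39 S phase genes lay above the sham mean, with medians of 0.68 and 0.34. Against sham, 3 of the other S phase genes (*Cdt1*, *Chaf1b*, and *Dtl*) and 1 of the other mitosis genes (*Ckap2*) were higher under the label WT at an unadjusted limma p under 0.05, beside 2.44% of all genes, and none of either list passed under the label TRPA1-KO. Without the day 7 library labelled WT, 0 were higher and 2 lower in each list (medians -0.07 and -0.09), beside 2.22% higher and 3.07% lower of all genes. Over all BCAS libraries and by the same threshold, *Dtl* was higher (0.60, SE 0.221) and *Anln* lower (-0.33, SE 0.140) than in sham. They are 1 of 39 and 1 of 47 genes, beside 1.35% higher and 2.32% lower of all genes. The smallest adjusted p of each list was 0.9998 there (limma).

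Of 15 other G1 cyclins, kinases and pocket proteins, 8 lay above and 7 below the sham mean on day 7 under the label WT (median 0.05). Of 20 other inhibitors and p53 targets, 14 lay above and 6 below (median 0.13). *Ccnd2* (cyclin D2) was lower under the label WT than under the label TRPA1-KO (-0.36, SE 0.106, limma p = 0.00661) and than in sham (-0.47, SE 0.111, limma p = 0.00128), each with an exact permutation p of 0.10. Its values were 93.5 and 92.3 CPM in the shams, 70.4, 57.5, and 73.3 CPM under the label WT, and 87.8, 93.3, and 77.9 CPM under the label TRPA1-KO. The libraries labelled WT lay below all the others, and those of the shams and the label TRPA1-KO overlap. No other gene of this list passed in either direction in those comparisons, where 1.80% and 3.01% of all genes were lower. The smallest adjusted p of the list was 0.98 between the labels and 0.75 against sham (limma). Of the inhibitors and p53 targets, *Cdkn2c* (the CDK4 and CDK6 inhibitor p18) alone passed between the labels, by 0.81 (SE 0.230, limma p = 0.00573, exact permutation p = 0.10). Of all genes, 2.40% were higher and 1.80% lower. The smallest adjusted p of the list was 0.98 (limma). With day as a block, 1 of the 20 was higher and 1 lower, beside 380 and 252 of all 18123 genes. *Cdkn2c* had 4.69 and 4.03 CPM in the shams, 5.69, 4.41, and 3.40 CPM under the label WT, and 1.89, 1.71, and 2.81 CPM under the label TRPA1-KO. It was low in the 3 BCAS libraries labelled TRPA1-KO, also against sham (-0.79, SE 0.241, limma p = 0.00735, exact permutation p = 0.10). *Sesn1*, a p53 target, was lower than sham under that label (-0.21, SE 0.081) and over all BCAS libraries (-0.19, SE 0.072). At an unadjusted limma p under 0.05, 2 of the 20 were lower under that label and 1 over all BCAS libraries, where 1.67% and 2.32% of all genes were lower. None of the 20 had a limma adjusted p under 0.05 in either comparison, and none passed against sham under the label WT.

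Microglia genes were high in the same library. The 10 microglia genes summed to 1127 CPM on day 7 under the label WT, 2.95 times the sham mean (95% interval 2.87 to 3.03), and all 10 were highest there. *Aif1* (IBA1) had 13.0 CPM against 3.45 to 8.32 CPM in the other 7 libraries. Unlike the mitosis genes, the microglia sum was also above sham on day 10 under the label WT (1.66 times) and on day 14 under the label TRPA1-KO (1.32 times). *Csf1r*, *Itgam*, and *Trem2* were higher under the label WT than in sham, with limma p = 0.0185, 0.0221, and 0.0188, limma adjusted p of 0.88 to 0.89, and an exact permutation p of 0.20 each. Without the day 7 library labelled WT, the microglia genes higher than sham at an unadjusted limma p under 0.05 went from 4 to 1 of 10 (2.44% and 2.22% of all genes), and the median difference of the 10 from 0.77 to 0.34. Between the labels after BCAS, 10 of 10 microglia genes lay above 0 (median 0.67) and 3 were higher under the label WT at that threshold (2.40% of all genes). Without the day 7 library labelled WT the median was 0.31 and 1 was higher (1.59%). Of the 10 endothelial genes, 9 lay above 0 between the labels (median 0.21) and 2 were higher, 0 without that library.

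The 10 astrocyte genes summed to 1.30 times the sham mean on day 7 under the label WT, and 1.22 and 1.20 times on day 10 under the label WT and day 14 under the label TRPA1-KO. Without *Gfap*, a choice made after seeing the data, these sums were 1.05, 1.04, and 1.16 times. Gene by gene, 8 of the 10 astrocyte genes lay above the sham mean and 2 below it on day 7 under the label WT (median 0.37). Of the 10, 3 were at least 0.5 above it (9.90% of all genes) and 7 were highest in that library (21.9%). *Slc1a2* had 2675 CPM on day 7 under the label WT, below both shams (3045 and 2770 CPM). *Gfap*, the filament of reactive astrocytes, had 1415 CPM there, 1060 CPM on day 10, and 157 to 427 CPM in the other 6 libraries. The 10 oligodendrocyte precursor genes, whose cells are the main cycling population of adult white matter, summed to 1.05 times the sham mean on day 7 under the label WT, with *Ptprz1* the most abundant over the 8 libraries. *Pdgfra*, their receptor for PDGF, had 57.5, 52.7, and 60.4 CPM under the label WT, 55.7, 56.9, and 62.6 CPM under the label TRPA1-KO, and 68.8 and 64.9 CPM in the shams. It was lower in all 6 BCAS libraries (-0.21, limma p = 0.0218, exact p = 0.0357, limma adjusted p = 0.9998). Between the labels after BCAS, 3 of the 10 precursor genes were higher under the label WT at an unadjusted limma p under 0.05 (2.40% of all genes tested) and none was lower. The groups of these 3 did not overlap (4.48% of all genes), and neither did those of *C1ql1*, which was lower under the label WT (-0.27, SE 0.187, limma p = 0.184, exact permutation p = 0.10), beside 4.73% of all genes in that direction. *Bmp4*, a ligand of the BMP family, had 2.66 and 1.44 CPM in the shams, 4.54, 5.54, and 4.39 CPM on days 7, 10, and 14 under the label WT, and 1.67, 1.28, and 3.33 CPM under the label TRPA1-KO. Its difference was 0.96 between the labels (SE 0.256, limma p = 0.00379, exact permutation p = 0.10) and 0.96 between the label WT and sham (SE 0.290, limma p = 0.00691, exact permutation p = 0.10). *Gpr17*, a receptor of precursors that begin to differentiate, differed by 0.48 (SE 0.163, limma p = 0.0140, exact permutation p = 0.10) and *Neu4*, a sialidase, by 0.44 (SE 0.177, limma p = 0.0317, exact permutation p = 0.10). *Neu4* was also lower under the label TRPA1-KO than in sham (-0.55, SE 0.184, limma p = 0.0122, exact permutation p = 0.10). The 3 differences between the labels had an adjusted p of 0.98 (limma). Without the day 7 library labelled WT, 3 of the 10 precursor genes were higher and 1 lower under the label WT (1.59% and 1.82% of all genes). The median difference of the 10 between the labels went from 0.115 to 0.032.

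Other cell types were measured in the same way. On day 7 under the label WT, endothelial genes summed to 1.33, ependymal genes to 1.13, pericyte and smooth muscle genes to 1.03, cortical excitatory neuron genes to 0.878, and mature oligodendrocyte genes to 0.808 times the sham mean. Choroid plexus genes summed to 1.74 times, on 9.25 CPM in all. Genes of infiltrating immune cells summed to 38.1 CPM there, or 1.53 times the sham mean. *Cd4*, the most abundant of them over the 8 libraries, had 8.98 CPM there and 14.3 and 23.0 CPM in the shams, and was lower under the label WT than in sham (-0.89, SE 0.241, limma p = 0.00352, exact permutation p = 0.10). In that comparison 5 of the 6 immune genes tested lay above 0 (median 0.51). At an unadjusted limma p under 0.05, 2 were higher and 1 lower (2.44% and 3.01% of all genes). Without the day 7 library labelled WT, 1 was higher and 1 lower (2.22% and 3.07%). On day 7 under the label WT the most abundant immune gene, *Ptprc* (CD45, which microglia also express), had 19.6 CPM against 2.88 to 10.8 CPM elsewhere. Of the defining genes, *Cd3e* of T cells and *Ms4a1* of B cells had 0 reads in that library and in both shams. *Cd8a* of T cells and *Nkg7* of cytotoxic lymphocytes had 4 and 3 reads there and 0 in both shams, *Cd79a* of B cells had 1 read there, 1 in the sham labelled WT and 0 in the other, and *Ccr2* of monocytes had 20 reads there and 1 in each sham. The 12 genes of subventricular zone progenitors and neuroblasts, the dividing cells next to this tissue, summed to 185 CPM (1.11 times sham), and 7 of 12 lay below the sham mean. Over the BCAS libraries labelled WT, 3 of 12 were lower than in sham and 0 higher at an unadjusted limma p under 0.05 (3.01% and 2.44% of all genes). In the day 7 library labelled WT the 12 differences from sham ranged from -0.685 to 1.171. There 2 were at least 0.5 higher and 3 at least 0.5 lower (9.90% and 3.13% of all genes). Striatal neuron genes summed to 0.437 times the sham mean in that library and to 0.495 to 0.796 times in the other 5 BCAS libraries, and at an unadjusted limma p under 0.05, 8 of 8 were lower than in sham under the label WT (median -0.88; 3.01% of all genes), 7 of 8 under the label TRPA1-KO (median -0.55; 1.67%), and 8 of 8 over all BCAS libraries (median -0.73; 2.32%). Between the labels after BCAS all 8 lay lower under the label WT (median -0.32), and 1 of 8 passed (1.80% of all genes were lower), 0 of 8 without the day 7 library labelled WT (1.82%), and 7 of 8 with day as a block (1.39%). Mature oligodendrocyte genes summed to 0.783 to 0.887 times the sham mean over the BCAS libraries of both labels. At an unadjusted limma p under 0.05, 4 of 10 were lower than in sham under the label WT (3.01% of all genes). The count was also 4 of 10 under the label TRPA1-KO (1.67%) and over all BCAS libraries (2.32%), and none was higher. Under the label TRPA1-KO, 1 had a limma adjusted p under 0.05 (0.046; 0.00552% of all genes). How far these cell types take part in the cell cycle values was not tested.

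**Figure D5:**
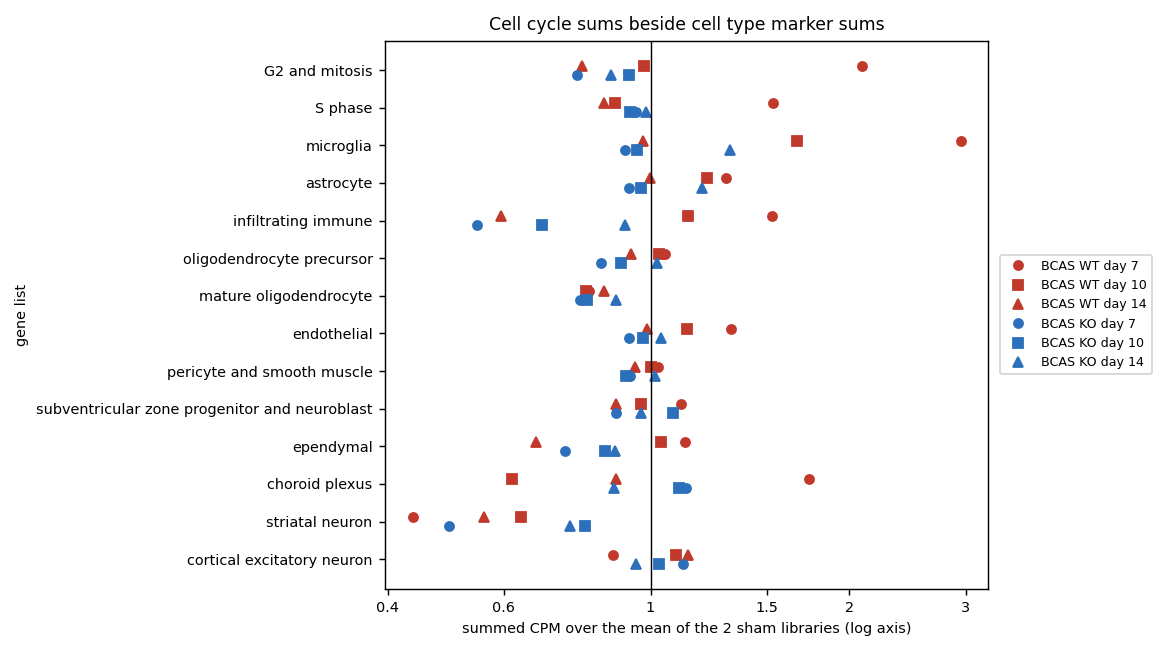
Summed CPM of cell cycle genes and of cell type markers in each BCAS library, divided by the mean of the 2 sham libraries (log axis); red marks the label WT and blue the label TRPA1-KO. On day 7 under the label WT the sums for mitosis (2.09) and microglia (2.95) are far above sham, and those of oligodendrocyte precursors (1.05) and subventricular zone cells (1.11) are near it.

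The genes most like the mitosis genes were sought outside all lists used here, among 14909 genes averaging 1 CPM or more. The measure was Pearson's r over the 8 libraries with the mean standardized level of the 24 mitosis genes, given as a description. The first 10 were *Ugt1a6b* (r = 0.99), *Col5a3*, *Ugt1a6a*, *Bcl2l11*, *Anxa2*, *Ugt1a7c*, *Ftl1*, *Serpine2*, *Ugt1a5*, and *Ugt1a2* (r = 0.97). All 10 were highest on day 7 under the label WT, for example *Anxa2* (annexin A2) at 30.0 CPM against 3.90 to 7.56 CPM and *Ftl1* (ferritin light chain) at 509 CPM against 197 to 242 CPM. Without that library, r was 0.79 to 0.96 over the other 7. The 10 genes were picked by r over all 8 libraries, so neither this r nor their high day 7 values are separate evidence. The *Ugt1a* genes share exons with each other, so their reads cannot be told apart.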

How the data were processed

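Polyadenylated RNA was sequenced after library preparation with a kit that does not mark strand. The authors mapped reads to GRCm38 with HISAT 2.1.0, counted them with subread 2.0.1, and normalized them with edgeR 3.34.1. The gene annotation and strand setting were not given in the sources used here. The deposited signal is a CPM on edgeR's effective library size, not logged. Every value (100%) was a whole number of reads once divided by what 1 read is worth (tolerance 0.01 reads), so the reads were recovered.

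Groups came from the labels. The test was limma 3.58.1 with a trend (R 4.3.3), two-sided, on log2(CPM + 1), over the 18123 of 25239 genes averaging 0.1 CPM or more, with Benjamini-Hochberg adjustment. Fold changes on this scale understate those of low genes. The labels were compared over 6 BCAS libraries, and BCAS with sham in a fit of 3 groups over 8 libraries. Single values were set against exact permutation tests over libraries, and p-values measure only the spread between these libraries. Intervals are Poisson intervals (summed CPM) or exact binomial intervals (single genes and folds of sums) of the recovered reads and cover counting error only. Alternatives changed the pseudocount (0.1), the filter (none, or 1 CPM), the scaling (equal medians), the test (limma's robust option, and edgeR 4.0.16 and DESeq2 1.42.0 on the recovered reads), and the design (a replicate block of day, a fit of all 8 libraries, and each library left out in turn).

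The 40 genes and the other lists were chosen with earlier results of these data known. Outside the 40, up to 4 genes per list and comparison were named if they had an unadjusted limma p under 0.05 and groups without overlap, with the most abundant gene and genes at 0 reads of some cell types. *Aif1*, *Gfap*, *Ptprc*, *Ccr2*, *C1ql1*, and *Anln* were named after their values were seen. Not every gene of the lists is reported by name here. Positions, exon lengths and promoter windows are from RefSeq GRCm38.p6 (all 40 genes matched for position, 32 for a window), and shared exon bases from GENCODE.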

Additional observations from a re-analysis of the deposited data

Results flagged for a closer look

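For 3 of the 40 genes, every BCAS library labelled WT lay above its own sham and every BCAS library labelled TRPA1-KO below its own sham. The same held for 4.41% of all 18123 genes tested, against 7.50% of the 40, and the opposite pattern for 4.98% and for 0 of the 40. These 3 genes were picked for their opposite signs, so their values are a description and no p is given for them. With 1 sham library per label, each value also holds the difference between the sham libraries.

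*Mcm3*, a subunit of the replication helicase, lay above the sham labelled WT by 1.58, 0.45, and 0.23 (log2) on days 7, 10, and 14, and its differences from the sham labelled TRPA1-KO were -0.35, -0.13, and -0.04. The effects differed by 0.93, and the BCAS libraries alone by 0.46 between the labels. *Mcm4*, of the same complex, had differences of 0.56, 0.16, and 0.18 under the label WT and of -0.34, -0.44, and -0.36 under the label TRPA1-KO. Its effects differed by 0.68, and the BCAS libraries alone by 0.08. The sham labelled TRPA1-KO held 15.7 CPM and that labelled WT 10.0 CPM. *Ube2c*, the conjugating enzyme of the anaphase-promoting complex, had differences of 1.79, 1.08, and 0.28 under the label WT and of -0.46, -1.01, and -0.50 under the label TRPA1-KO. Its effects differed by 1.70, and the BCAS libraries alone by 1.05, on 2 to 49 reads per library. In limma's test of this difference as an interaction over all genes, 1 of the 40 had an unadjusted p under 0.05 and 0 an adjusted p under 0.05, with a median difference of 0.28. Over all 18123 genes, 271 had an unadjusted p under 0.05 and the median was 0.01.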

How the results depend on the processing

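The count of genes at an adjusted p under 0.05 was 0 in the 4 comparisons under all 15 alternatives of each, edgeR and DESeq2 among them. The counts at an unadjusted p under 0.05 were small, and many of them moved when a library was left out. The share of all genes passing is not given for most alternatives. The counts therefore show only how far the calls depend on the processing. Between the BCAS labels, 3 genes passed, and with no filter on low values 1 did. Leaving out a library in turn gave 1 to 14. The 14 came without the day 14 library labelled WT, where 6.75% of all genes were higher and 3.44% lower. edgeR and DESeq2 gave 4 each. For the label WT against sham, 1 gene passed, with 2 by edgeR, 2 by DESeq2, 0 with no filter, and 0 to 7 without a library (7 without day 14 labelled WT). For the label TRPA1-KO against sham, 1 passed, with 0 under no filter and 0 to 2 without a library. For all BCAS libraries against sham, 0 passed, with 0 to 1 without a library. The cause was not tested. Median log2 differences ranged from -0.03 to 0.52 between the labels, from -0.16 to 0.33 for the label WT against sham, from -0.17 to -0.05 for the label TRPA1-KO against sham, and from -0.14 to 0.10 for all BCAS libraries. The lowest median between the labels and the lowest for the label WT against sham came from leaving out day 7 labelled WT. Calls of single genes kept their direction under every alternative and were lost in some of the 15: *Cdkn1a* in 6, *Kif11* in 4 (labels) and 6 (against sham), *Ube2c* in 1, and *Bub1b* in 7. The difference of *Ube2c* ranged from 0.68 (without day 7 labelled WT) to 2.13 (DESeq2). That of *Cdkn1a* ranged from 0.33 to 0.68, that of *Kif11* from 0.42 to 0.93 (labels) and -0.81 to -0.47 (against sham), and that of *Bub1b* from 0.42 to 1.14.

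The replicate block of day left the count between the BCAS labels at 2, without *Cdkn1a*. The deviations of same-day libraries correlated at -0.10, 0.01, and -0.26 on days 7, 10, and 14 (10744 genes), and the labels give them a shared postoperative day but no shared mouse or batch. Among the cell type lists, the block took the striatal neuron genes lower under the label WT from 1 to 7 of 8. In the summed reads, leaving out the gene with the most reads over the 8 libraries moved the day 7 fold over sham under the label WT to 1.25 in G1 (without *Ccnd1*), 1.66 in S phase (without *Pcna*), and 2.27 in G2 and mitosis (without *Kif20a*; 1.99 without *Top2a*, which had the most reads in that library, chosen after seeing the data), and the day 14 fold in G1 to 1.34. The 30 genes at least 0.5 above sham on day 7 under the label WT were 28 to 34 under alternatives chosen after seeing the data (scaling, pseudocount, and other reference libraries). Depth limits genes such as *Bub1* and *Aurkb*, with 1 read in the lowest library.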
